A study of Mus musculus with 4 samples.

Results

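The replication-dependent histone genes were taken as every row of the deposited gene count table whose symbol began with Hist1h, Hist2h, Hist3h or Hist4h, which gave 68 of 24421 genes. They comprised 6 genes for the linker histone H1, 18 for H2a, 19 for H2b, 12 for H3 and 13 for H4. RNA was sequenced from LSK cells of mouse bone marrow, a fraction sorted as negative for lineage markers and positive for Sca1 and Kit, in which hematopoietic stem cells and early progenitors lie. The mice were aged 13 to 15 months and were either p53R248W/+, with an arginine-to-tryptophan missense mutation in the DNA-binding domain of p53 on 1 allele of Trp53 (2 libraries), or WT (2 libraries). The labels do not say how the allele was made, how many mice a library holds or whether the libraries of a genotype came from separate mice, so a p-value here reflects library-to-library spread alone, which may be technical.

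Nucleosomes are built from H2a, H2b, H3 and H4, with H1 on the linker DNA. The genes studied here lie in tight clusters, are transcribed mainly in S phase to package newly copied DNA, and are known for mRNAs that end in a conserved stem-loop bound by the protein Slbp in place of a poly(A) tail. Some of them can also give longer, polyadenylated mRNAs. Hematopoietic stem cells are mostly resting, while many of the progenitors sorted with them divide.

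The stem-loop is shown first because it is the 3′ element that sets these mRNAs apart. The 16-base histone stem-loop, in which bases of the stem and 1 of the loop were free to vary, was searched on the sense strand of the GENCODE M21 transcripts (GRCm38, the mm10 build). It was found in 44 of the 67 members with a protein-coding transcript (65.7%) and in 28 of 21810 other protein-coding genes (0.128%). The GENCODE models of the 24 members without a match covered 45.2% to 100% of the bases on which reads were counted, so the missing match says only that these letters are not in those models. The following sites are given 5′ to 3′ on the gene's strand, with the stem-loop in capitals.
Hist1h4d, chr13:23581950-23581965, plus strand: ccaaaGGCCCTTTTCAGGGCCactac
Hist1h4i, chr13:22040966-22040981, minus strand: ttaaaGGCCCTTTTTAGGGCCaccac
Hist1h4j, chr13:21735437-21735452, plus strand: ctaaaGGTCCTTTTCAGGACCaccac
Hist1h1e, chr13:23621782-23621797, minus strand: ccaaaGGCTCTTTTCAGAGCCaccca
Hist2h2ac, chr3:96220418-96220433, minus strand: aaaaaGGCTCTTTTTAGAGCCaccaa
Hist1h2bb, chr13:23747203-23747218, plus strand: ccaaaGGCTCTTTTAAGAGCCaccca
Hist1h3e, chr13:23561903-23561918, minus strand: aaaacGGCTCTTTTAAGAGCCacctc
All 33 sites of the H1, H2a, H2b and H3 genes had a stem that opened with GGCTC, and none of the 11 sites of the H4 genes did. The version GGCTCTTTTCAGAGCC was the commonest, with 3 H1, 10 H2a, 8 H2b and 5 H3 genes. Among the H4 genes, 7 had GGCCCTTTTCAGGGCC, 2 had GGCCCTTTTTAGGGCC and 2 had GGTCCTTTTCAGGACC. In 42 of the 44 members the exon on which the authors counted reads ended 4 to 8 bases after the stem-loop. The exceptions were Hist1h2be, whose counted exon ran 1861 bases past it, and Hist1h4j, whose counted exon stopped before it. For each of the 44, 1 GENCODE transcript with the stem-loop was kept. It ran at least 100 bases past the stem-loop for 22 of them, and other transcripts of a gene were not measured.

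The promoters were examined because members of a histone type share promoter elements. RefSeq (GRCm38.p6) gave a window from 250 bases before to 50 bases after the start for 61 of the 68 members. Each motif was counted on either strand over the whole window. The core promoter motif TATAAA was in 57.4% of members and 15.7% of the 27025 genes of the table, and CCAAT in 85.2% of members and 41.1% of all genes. This box was present in all of the H1, H2a, H2b and H3 genes with a window and in 3 of 12 H4 genes. The octamer ATTTGCAT was in 7 of 16 H2b and 7 of 17 H2a genes, in none of the H1, H3 or H4 genes and in 1.97% of all genes. H2a and H2b genes that lie head to head have overlapping windows, so their sites are partly the same sites. AAACACA, the H1 box, was in 5 of 6 H1 genes and in 8.22% of all genes. The 250 bases before the start are given for the most highly expressed H1 gene and for the H4 gene that carried most H4 reads, with matches to these motifs on either strand in capitals.
Hist1h1e, chr13:23622559-23622808, minus strand: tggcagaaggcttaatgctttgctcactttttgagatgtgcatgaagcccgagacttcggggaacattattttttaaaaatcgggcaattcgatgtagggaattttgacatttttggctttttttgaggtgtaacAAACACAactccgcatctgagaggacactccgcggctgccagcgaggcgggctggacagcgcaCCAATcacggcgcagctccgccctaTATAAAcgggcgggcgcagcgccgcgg
Hist1h4d, chr13:23581318-23581567, plus strand: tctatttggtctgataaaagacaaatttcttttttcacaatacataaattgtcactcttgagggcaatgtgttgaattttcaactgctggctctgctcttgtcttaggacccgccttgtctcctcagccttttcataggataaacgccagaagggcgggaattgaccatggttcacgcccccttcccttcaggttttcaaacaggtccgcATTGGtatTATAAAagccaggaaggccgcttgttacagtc
A match describes letters in a window and is not evidence of binding.

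The libraries held 12111126 to 14820759 counted reads. All 9 LSK markers checked, Kit and Ly6a (Sca1) among them, were detected and passed the filter on low counts, and their summed level was 3253 and 3249 CPM (read counts scaled to library size with TMM factors) in p53R248W/+ against 2572 and 2884 CPM in WT. Genes used as markers of other marrow cells were also detected. Their sums in p53R248W/+ and then in WT libraries were 27.5 and 18.7 against 7.04 and 11.3 CPM for 8 B cell genes (Pax5 at 0 in all), and 49.98 and 42.4 against 101 and 103 CPM for 4 megakaryocyte genes (none at 0). They were 730 and 633 against 1429 and 396 CPM for 9 granulocyte-monocyte genes (none at 0), 38.3 and 28.3 against 42.1 and 36.5 CPM for 10 erythroid genes (the globin genes Hba-a1, Hba-a2, Hbb-bs and Hbb-bt at 0 in all), and 1.89 and 2.06 against 0.628 and 1.33 CPM for 4 T cell genes (Cd3g at 0 in all). Whether these reads came from LSK cells or from other cells was not tested, nor was any part of other cells in the histone values. In bulk RNA, fewer cells in S phase and less histone RNA per cell cannot be told apart.

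Histone reads made up a small part of each library, 0.0215% and 0.0264% of counted reads in p53R248W/+ against 0.0339% and 0.0336% in WT. Of the 68 members, 54 had at least 1 count and 38 passed the filter and were tested. The other 16 with counts were low: Hist3h2ba had 20 and 5 counts in p53R248W/+ and 0 in both WT libraries, and Hist2h3b had 1 and 0 counts in p53R248W/+ against 1 and 26 in WT. The 14 members without a count were of 2 kinds. For 9 of them at least 80% of the counted bases were also assigned to another histone gene, as for Hist2h2aa1 with Hist2h2aa2, Hist2h3c1 with Hist2h3c2, and Hist1h2bq with Hist1h2br. Their 0 was not read as a lack of expression: featureCounts by default leaves out reads that fall on several genes, and the sources used here do not state the setting. The other 5 shared no exon base and were Hist1h1t, Hist1h2ba and Hist1h2aa, which encode testis histones, with Hist1h2ah and Hist4h4. In Hist1h2ah, 92.1% of the 50-base stretches of the counted exon also occur in other annotated genes. Its 0 was therefore not read as a lack of expression either. Where reads are not lost to copies, a count of 0 allowed a level of up to 0.202 to 0.248 CPM per library (3 counts, counting error only).

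Near-identical copies limit what a count for 1 histone gene means. Of the 38 tested members, 22 shared at least 50% of the 50-base stretches of their counted exon with another annotated gene, and 5 shared none: Hist1h1e, Hist1h1b, Hist1h1a, Hist2h2be and Hist2h4. Not every such match is a histone copy: Hist3h2a shared 100%, most often with Trim17. Hist1h4d shared 34.8% and Hist1h2bl shared 82.8%. Values of strongly shared members are therefore uncertain where the authors' counting could split or drop reads. The members that shared under 50% had 12 of 16 values below 0 and a median log2 fold change of -0.58, and those that shared more had 16 of 22 below 0 and a median of -0.62.

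A few genes carried most of the signal. The 10 members with the highest mean CPM held 70.3% and 71.6% of histone reads in p53R248W/+ against 73.6% and 68.1% in WT. Per length of counted exon, Hist1h4d stood first at 109 CPM per kilobase (mean of the 4 libraries), followed by Hist1h2bl at 55.8, Hist1h1e at 55.5 and Hist1h2ak at 40.1. Hist1h1c came next at 21.2 and Hist1h1b at 17.5 CPM per kilobase. Hist1h2bl and Hist1h1e did not differ beyond the spread of their libraries. The median of the tested members was 7.61 CPM per kilobase. Among the H3 genes with a count Hist1h3e was highest, at 12.6 CPM per kilobase. Hist2h3c1 and Hist2h3c2, whose 0 was not read as a lack of expression, cannot be ranked.

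**Figure D1:**
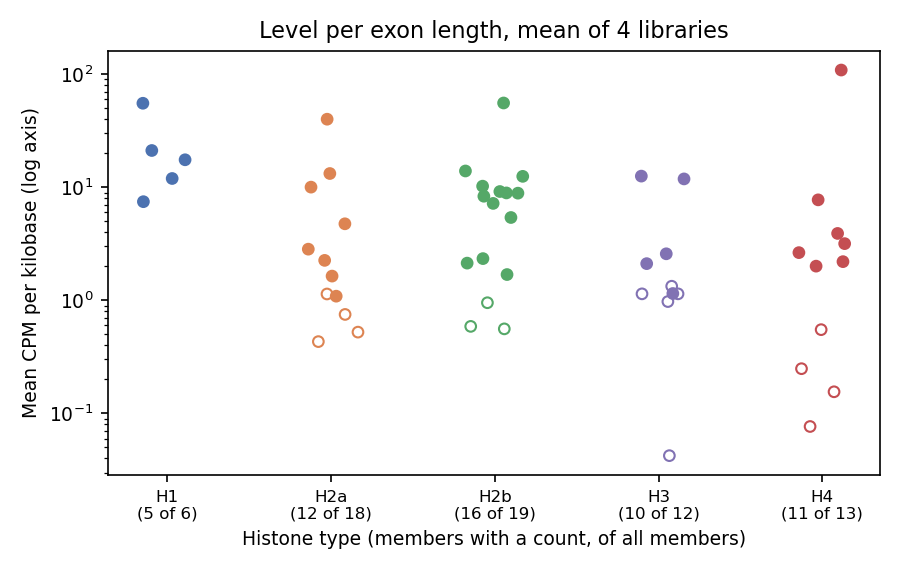
Mean CPM per kilobase of counted exon (log axis) for each histone gene with a count, by type, over the 4 libraries. Filled points are the 38 tested members and open points those below the filter. The highest point is Hist1h4d at 109, and the H3 genes stay at or under 12.6.

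Summed over all 68 members, tested or not, histone reads were at 215 and 264 CPM in p53R248W/+ against 344 and 333 CPM in WT, a ratio of 0.707. Both p53R248W/+ libraries were below both WT libraries, and p53R248W/+ replicate 1 was the lowest. The types were unequal. H4 was at 34.8 and 34.3 CPM in p53R248W/+ against 63.4 and 63.3 CPM in WT, a ratio of 0.545 that lay between 0.541 and 0.550 with any library left out. H2a was at 31.8 and 22.1 CPM in p53R248W/+ against 49.5 and 57.9 CPM in WT, a ratio of 0.501. H1 was at 72.1 and 83.9 CPM in p53R248W/+ against 97.4 and 96.1 CPM in WT, a ratio of 0.807. For these 3 types the genotypes did not overlap. H2b was at 65.6 and 102 CPM in p53R248W/+ against 117 and 94.8 CPM in WT, and H3 at 10.3 and 21.9 CPM in p53R248W/+ against 16.8 and 20.9 CPM in WT. For both types the genotypes overlapped. Without p53R248W/+ replicate 1 the H2b ratio was 0.962, against 0.791 with all libraries, and the H3 ratio was 1.16, against 0.854, so the direction for H3 rests on that library. The sums are described and not tested.

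**Figure D2:**
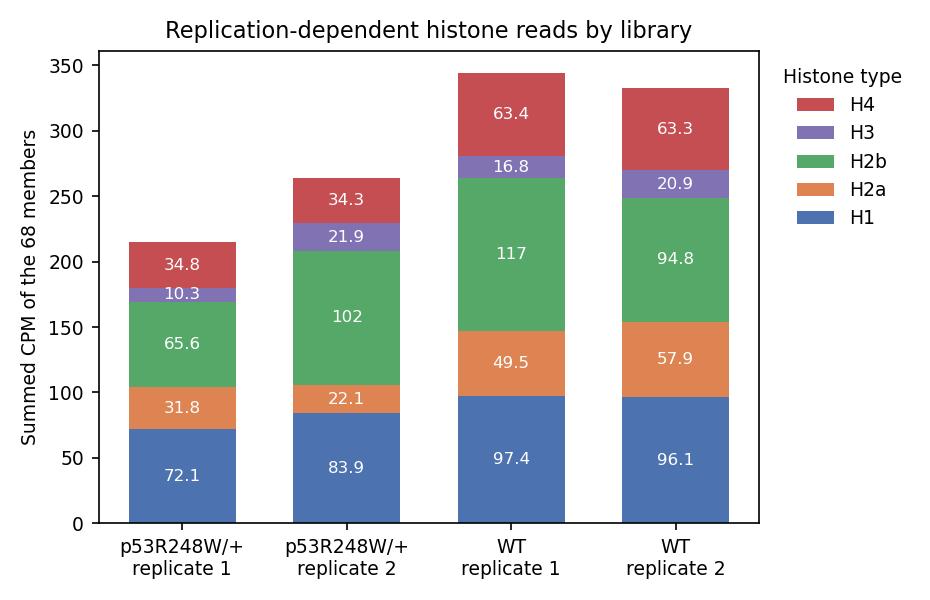
Summed CPM of the 68 histone genes in each library, stacked by histone type, with p53R248W/+ libraries on the left. The H4 segment is 34.8 and 34.3 CPM in p53R248W/+ and 63.4 and 63.3 CPM in WT.

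By genomic cluster, the genotypes stood apart in Hist1 on chromosome 13. Its 54 members summed to 180 and 227 CPM in p53R248W/+ against 305 and 299 CPM in WT. The 10 members of Hist2 on chromosome 3 summed to 29.4 and 35.2 CPM in p53R248W/+ against 35.2 and 30.7 CPM in WT, and the genotypes overlapped. Most of that sum was Hist2h2be in 3 of the 4 libraries. The other 9 members summed to 6.14 and 5.29 CPM in p53R248W/+ against 7.46 and 18.2 CPM in WT. The genotypes did not overlap there, but this sum was chosen after seeing the data and WT replicate 2 alone was far above the rest. Among tested members, 24 of 33 in Hist1 were below 0 with a median log2 fold change of -0.59, and 3 of 4 in Hist2 with a median of -0.54. The cluster sums hold no reads of members at 0 whose counted bases were mostly assigned to another histone gene as well. In Hist2 these were Hist2h2aa1, Hist2h2aa2, Hist2h3c1 and Hist2h3c2. In Hist1 they were Hist1h2ao, Hist1h2ap, Hist1h2bq, Hist1h2br and Hist1h4m. The difference between the clusters was not tested.

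The comparison of p53R248W/+ with WT set cells heterozygous for the mutant allele against wild-type cells, and it was fitted over 13296 genes with the quasi-likelihood test of edgeR. No histone gene passed an adjusted p of 0.05, where 0 of 13296 genes (0%) passed, and the members' adjusted p ran from 0.824 to 1.000. At an unadjusted p under 0.05 there were 2 of 38 members lower in p53R248W/+ and 0 higher, against 2.86% lower, 3.01% higher and 5.87% in either direction over all tested genes. DESeq2 also called no member and called 6 genes in all (0.0451%). Of the 38 tested members, 28 had a log2 fold change below 0, against 50% of all tested genes, and their median was -0.58, against 0.00 for all genes. For 15 members both p53R248W/+ libraries were below both WT libraries, where 16.6% of all tested genes did the same, and for 2 members both were above, where 16.9% did. The filter bears on these counts: 9 tested members reached 10 counts in both libraries of WT only, and 0 did so of p53R248W/+ only. The 17 members with a mean of at least 5 CPM had 13 values below 0 and a median of -0.58, and the 54 members with any count, fitted without a filter, had 40 below 0 (50.3% of all genes in that fit) and a median of -0.75. The fit gave the members a median biological coefficient of variation of 75.0%, against 33.7% over all tested genes. Their median level was 4.16 CPM against 25.7 CPM. The fit draws this coefficient towards that of genes at a similar level. It therefore does not show that histone genes varied more than other genes as low.

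**Figure D3:**
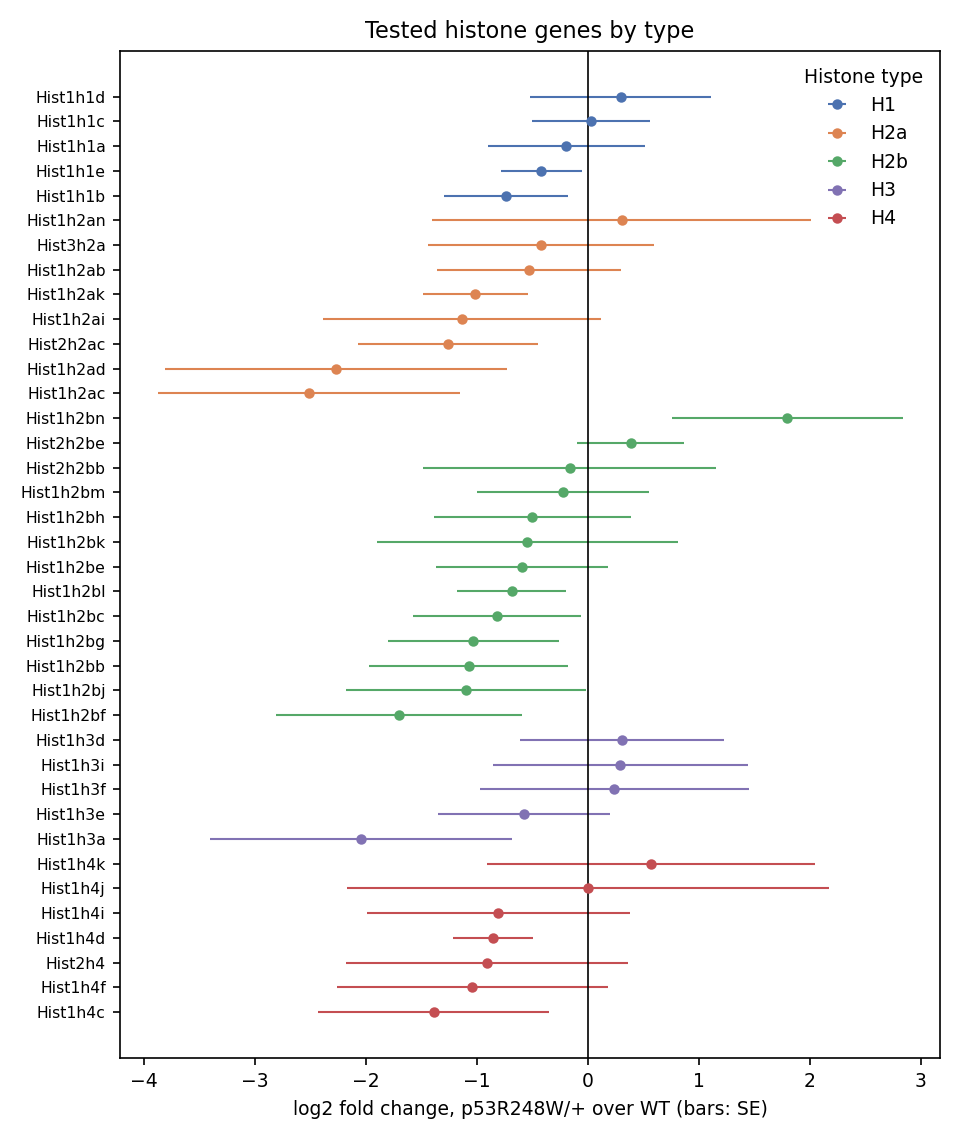
Log2 fold change of p53R248W/+ over WT for the 38 tested histone genes, grouped by type, with bars showing 1 SE from the edgeR fit. Most points lie left of 0, the bars are wide for low genes, and Hist1h2bn at 1.80 stands apart on the right.

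H4 genes encode the most conserved core histone. Hist1h4d (mm10 chr13:23581602-23581969, plus strand, 1 exon) carried 89.1% and 75.7% of H4 reads in p53R248W/+ against 79.9% and 83.8% in WT. It was at 31.03 and 25.9 CPM in p53R248W/+ against 50.6 and 53.03 CPM in WT. The genotypes did not overlap and the libraries of each lay close together. Its log2 fold change was -0.85 ± 0.36 (SE), with a 95% interval from -1.62 to -0.09, an unadjusted p of 0.0305 and an adjusted p of 0.824 (edgeR quasi-likelihood test). The other 12 H4 genes summed to 3.78 and 8.34 CPM in p53R248W/+ against 12.8 and 10.2 CPM in WT, without overlap. That sum leans on genes high in 1 WT library, so it does not settle whether the H4 difference went beyond Hist1h4d. Hist1h4n had 23 counts in WT replicate 2 and 0 in every other library. Hist1h4c was at 1.35 and 1.90 CPM in p53R248W/+ against 6.42 and 1.96 CPM in WT. WT replicate 1 alone was high, and the log2 fold change of -1.39 ± 1.04 (SE) was -0.30 without it. Hist1h4i was at 0.405 and 1.98 CPM in p53R248W/+ against 1.74 and 2.17 CPM in WT, with p53R248W/+ replicate 1 alone low. The fitted difference, -0.81 ± 1.19 (SE, log2), became 0.02 once that library was left out.

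Of the 8 tested H2a genes 7 had a log2 fold change below 0, with a median of -1.07. This median leans on the filter, since 3 of the 8 (Hist1h2ac, Hist1h2ad and Hist1h2ai) reached 10 counts in both libraries of WT only. Hist1h2ak (chr13:21753377-21753912, minus strand) was at 15.6 and 12.6 CPM in p53R248W/+ against 29.4 and 28.2 CPM in WT. The WT libraries were close together and both were above the p53R248W/+ libraries. The log2 fold change was -1.01 ± 0.47 (SE), with a 95% interval from -2.01 to -0.02, an unadjusted p of 0.0465 and an adjusted p of 0.824 (edgeR quasi-likelihood test). Hist2h2ac was at 4.45 and 2.73 CPM in p53R248W/+ against 6.07 and 11.6 CPM in WT, a fitted log2 difference of -1.26 ± 0.81 (SE), and of -0.72 when WT replicate 2 was left out. Hist1h2ac was at 0.607 and 0.165 CPM in p53R248W/+ against 2.02 and 2.74 CPM in WT, or 9 and 2 counts against 29 and 39. The genotypes did not overlap, but the 2 counts of p53R248W/+ replicate 2 are under the 3-count floor, and the fitted log2 fold change of -2.52 ± 1.36 (SE) depends on how the fit treats such low counts. It ran from -3.77 to -1.96 with a library left out. For Hist1h2ab the genotypes overlapped, with 5.13 and 3.06 CPM in p53R248W/+ against 4.46 and 7.65 CPM in WT, and the log2 fold change of -0.53 ± 0.83 (SE) was -0.08 without WT replicate 2.

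H2b genes were the most numerous among those tested, and 11 of 13 had a log2 fold change below 0, with a median of -0.59. These values lean on p53R248W/+ replicate 1: without it, 7 of 13 were below 0 and the median was -0.11. The filter bears on them too, since 2 of the 13 reached 10 counts in both libraries of WT only. Hist1h2bl (chr13:21715713-21716143, minus strand) was at 10.7 and 27.0 CPM in p53R248W/+ against 29.7 and 28.8 CPM in WT. Replicate 1 of p53R248W/+ alone was far below the rest, and the log2 fold change, -0.69 ± 0.49 (SE), became -0.11 when it was left out. Hist1h2bc showed the same library apart, at 2.698 and 9.17 CPM in p53R248W/+ against 11.9 and 7.996 CPM in WT, with a log2 fold change of -0.82 ± 0.75 (SE), which became -0.12 when that library was left out. Hist2h2be (chr3:96221121-96223738, plus strand), which is counted over 2618 bases, was at 23.3 and 29.9 CPM in p53R248W/+ against 27.8 and 12.6 CPM in WT. WT replicate 2 alone was low, and the log2 fold change of 0.38 ± 0.48 (SE) was -0.07 without it. Hist1h2bn (chr13:21754123-21754553, plus strand) had the highest log2 fold change of the tested members, 1.80 ± 1.04 (SE), at 7.08 and 2.48 CPM in p53R248W/+ against 0.767 and 2.10 CPM in WT. That value was 0.79 without p53R248W/+ replicate 1 and 2.69 without WT replicate 2, and 86.4% of its 50-base stretches are shared with other genes. Hist1h2bf, named after its values were seen, was at 0.337 and 3.63 CPM in p53R248W/+ against 10.04 and 1.82 CPM in WT, and no genotype kept to a level.

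**Figure D4:**
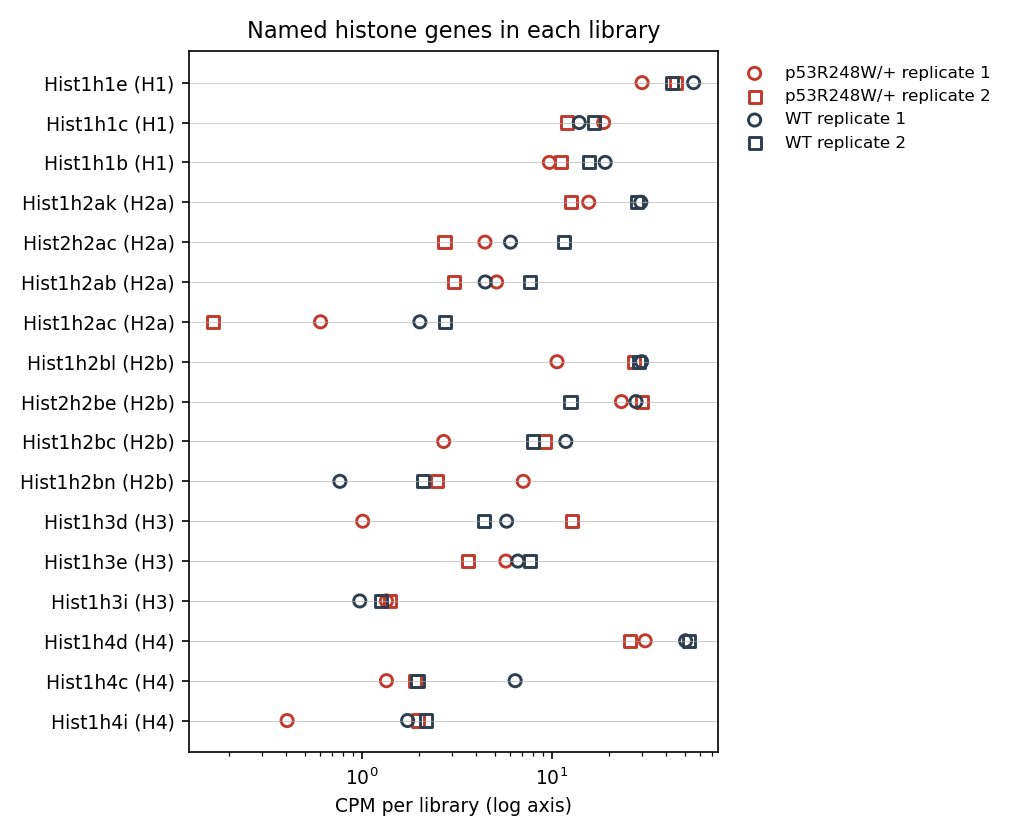
CPM per library (log axis) of the 17 named histone genes, with p53R248W/+ in red and WT in dark blue, circles for replicate 1 and squares for replicate 2. Hist1h4d and Hist1h2ak keep the genotypes apart with close replicates, while Hist1h2bl and Hist1h2bc have 1 low library, p53R248W/+ replicate 1.

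Linker histone genes were mixed, with 3 of 5 tested members below 0 and a median of -0.19. Hist1h1e, which encodes H1.4 (chr13:23621777-23622558, minus strand), was at 29.9 and 44.9 CPM in p53R248W/+ against 55.8 and 42.9 CPM in WT, and the genotypes overlapped. The log2 fold change was -0.42 ± 0.36 (SE). Leaving out p53R248W/+ replicate 1 gave -0.13, and leaving out replicate 2 of that genotype gave -0.72. Hist1h1b, which encodes H1.5, was at 9.71 and 11.2 CPM in p53R248W/+ against 19.1 and 15.6 CPM in WT, with no overlap and a log2 fold change of -0.74 ± 0.56 (SE). Hist1h1c, which encodes H1.2, was at 18.8 and 12.0 CPM in p53R248W/+ against 13.9 and 16.8 CPM in WT. Its log2 fold change was 0.03 ± 0.53 (SE), with a 95% interval from -1.10 to 1.15, and it was -0.36 without p53R248W/+ replicate 1 and -0.10 without WT replicate 1. Hist1h1e and Hist1h1b share no 50-base stretch with other annotated genes.

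The 5 tested H3 genes had a median log2 fold change of 0.24, with 2 of them below 0, while their summed level was lower in p53R248W/+ (ratio 0.854). The median turned to -0.60 with limma-voom, to -0.32 without p53R248W/+ replicate 2 and to -0.10 without WT replicate 1, and the 2 members left by the stricter filter gave -0.13. Hist1h3d was at 1.012 and 12.7 CPM in p53R248W/+, the lowest and the highest of the 4 libraries, against 5.79 and 4.42 CPM in WT. The fitted log2 difference, 0.31 ± 0.92 (SE), rests on these libraries. It became -2.33 when p53R248W/+ replicate 2 was left out and 1.32 when replicate 1 was. Hist1h3e was at 5.73 and 3.63 CPM in p53R248W/+ against 6.63 and 7.65 CPM in WT, with no overlap and a log2 fold change of -0.58 ± 0.78 (SE) that ran from -0.97 to -0.32 with a library left out. Hist1h3i was at 1.35 and 1.404 CPM in p53R248W/+ against 0.976 and 1.26 CPM in WT, with a log2 fold change of 0.29 ± 1.15 (SE), which was 0.12 to 0.50 with a library left out.

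Members with a stem-loop were grouped by the 1 GENCODE transcript kept for each, so another transcript of the same gene may end elsewhere. Members whose kept transcript ends within 100 bases of the stem-loop had 10 of 10 tested values below 0, with a median log2 fold change of -1.09. Those whose kept transcript runs at least 100 bases past it had 11 of 16 below 0 and a median of -0.54. Those without a stem-loop in their models had 7 of 12 and a median of -0.18. The median level over all members was 1.24 CPM per kilobase where the kept transcript ends early, 3.38 where it runs on and 1.14 where no stem-loop was found. The filter on low counts bears most on the members whose kept transcript ends early. Of those 10, 5 reached 10 counts in both libraries of WT only. So did 3 of the 16 whose kept transcript runs on and 1 of the 12 without a stem-loop. A member that passes through WT alone is bound to tend lower in p53R248W/+, so the counts below 0 support no difference between these groups.

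Many H2a and H2b genes lie head to head and share the DNA between their starts. Of 12 neighbouring pairs on opposite strands, 11 joined an H2a with an H2b gene, with 172 to 607 bases between the counted exons over all 12. Both partners were tested in 6 pairs, and both had a log2 fold change below 0 in 3 of them. In the 10 pairs with a count for both partners, the higher partner was 1.49 to 24.7 times the lower per kilobase, with a median of 6.43. The highest ratio was that of Hist1h2bl over Hist1h2ai, and it depends on how shared reads were assigned, since the partners share 82.8% and 90.1% of their 50-base stretches with other genes. Hist1h2ai lies 268 bases from Hist1h2bl and was at 0.674 and 0.578 CPM in p53R248W/+ against 1.60 and 1.19 CPM in WT. Hist1h2ak and Hist1h2bn, with 210 bases between them, had values on opposite sides of 0, -1.01 and 1.80. Hist2h2ac and Hist2h2be, with 240 bases between them, did as well, at -1.26 and 0.38. These pairs were chosen after their values were seen.

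Histone reads were set beside related genes (adjusted p = 0.824 or more for every gene named here, edgeR quasi-likelihood test). The 25 S phase genes comprised 23 genes of DNA replication and its control, among them helicase subunits and enzymes of nucleotide supply, with the proliferation marker Mki67 and the topoisomerase Top2a. They summed to 2573 and 4178 CPM in p53R248W/+ against 3639 and 4376 CPM in WT, and the genotypes overlapped. Replicate 1 of p53R248W/+ was low for both groups, at 63.4% of the WT mean for histones and 64.2% for S phase genes. Replicate 2 of p53R248W/+ was at 78.0% of the WT mean for histones and 104% for S phase genes, and that value rests on Mki67 and Top2a, which summed to 913 and 1877 CPM in p53R248W/+ against 1193 and 1802 CPM in WT. The other 23 S phase genes summed to 1660 and 2301 CPM in p53R248W/+ against 2446 and 2574 CPM in WT, a sum chosen after seeing the data, and the genotypes did not overlap. That put p53R248W/+ at 66.1% and 91.7% of the WT mean. As a percentage of the reads of all 25 S phase genes, histone reads were 8.34 and 6.32 in p53R248W/+ against 9.45 and 7.61 in WT, and the genotypes overlapped. Over the 23 genes the percentages were 12.93 and 11.47 in p53R248W/+ against 14.06 and 12.94 in WT, barely without overlap. The overlap thus depends on which S phase genes are summed. Of the S phase genes 23 of 25 had a log2 fold change below 0, with a median of -0.30. The 4 with the smallest unadjusted p were the replication ligase Lig1 (-0.76 ± 0.23, SE), the helicase subunits Cdc45 (-1.12 ± 0.42) and Mcm3 (-0.50 ± 0.22), and the ribonucleotide reductase subunit Rrm1 (-0.50 ± 0.22).

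**Figure D5:**
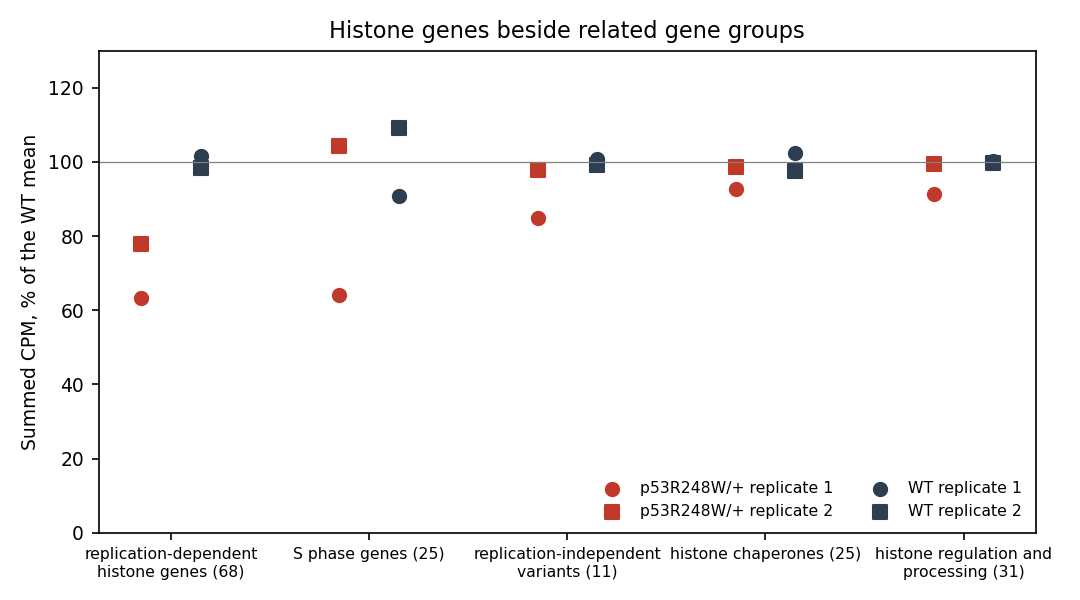
Summed CPM of 5 gene groups in each library as a percentage of the mean of the WT libraries, with p53R248W/+ in red and WT in dark blue, circles for replicate 1 and squares for replicate 2. Histone genes sit at 63.4% and 78.0% in p53R248W/+, while S phase genes, Mki67 and Top2a included, are at 64.2% and 104%. Without these 2 genes they are at 66.1% and 91.7%.

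Replication-independent histone variants are for the most part made throughout the cell cycle from polyadenylated mRNAs. Per length they ran from 0.843 to 519 CPM per kilobase with a median of 29.7, where the tested replication-dependent members had a median of 7.61. Poly(A) selection, which captures stem-loop mRNAs poorly, is not stated for these libraries, so such levels do not rank how strongly the genes are transcribed. Of the 11 variants, 4 were above Hist1h4d at 109 CPM per kilobase, with H2afz, the H2A.Z gene, at 519 and H3f3b, an H3.3 gene, at 372, and 7 were below it. Their 11 members summed to 2212 and 2548 CPM in p53R248W/+ against 2628 and 2587 CPM in WT, with a median log2 fold change of -0.01 and 7 of 11 below 0. H2afz was at 475 and 516 CPM in p53R248W/+ against 585 and 642 CPM in WT (-0.31 ± 0.15, SE), and H3f3b at 665 and 689 against 791 and 817 CPM (-0.25 ± 0.14, SE). The other named variants were low or overlapped: H2afj had a log2 fold change of -0.63 ± 0.57 and H1fx of -1.26 ± 1.33 (SE). H2afx, which encodes the damage-responsive H2A.X and also held the stem-loop pattern, was at 25.2 and 54.7 CPM in p53R248W/+ against 29.4 and 37.9 CPM in WT. It was named after its values were seen.

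The 31 genes of histone transcription and 3′ end processing summed to 2981 and 3241 CPM in p53R248W/+ against 3263 and 3253 CPM in WT, with 18 of 31 below 0 and a median of -0.06. Slbp, the stem-loop binding protein, was at 66.7 and 87.2 CPM in p53R248W/+ against 73.2 and 107 CPM in WT (log2 fold change -0.24 ± 0.28, SE). Npat, the cyclin E-Cdk2 substrate that activates histone transcription, was at 131 and 138 CPM in p53R248W/+ against 147 and 143 CPM in WT (-0.11 ± 0.21, SE), and both genes were named after their values were seen. The 4 with the smallest unadjusted p were the octamer-binding factor Pou2f1 (0.37 ± 0.20, SE), the endonuclease Cpsf3 (-0.37 ± 0.24), Srrt (-0.31 ± 0.23) and the uridylyltransferase Zcchc6 (-0.20 ± 0.16). The 25 histone chaperones, which carry histones to DNA, had 19 of 25 below 0 and a median of -0.15. The importin Ipo4 was at 38.0 and 34.9 CPM in p53R248W/+ against 99.0 and 41.2 CPM in WT, with WT replicate 1 alone high (-0.94 ± 0.39, SE). Mms22l, Ssrp1 and Rbbp7 had log2 fold changes of -0.45 ± 0.31, -0.26 ± 0.19 and -0.22 ± 0.17 (SE).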

How the data were processed

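The authors deposited raw read counts per gene symbol, with exon coordinates. Tools named in the submitters' processing notes are STAR 2.7.10a, Subread 2.0.3 with its featureCounts program, FastQC 0.11.5 and edgeR 3.40.2, and the build is mm10. The labels' protocols describe column-based RNA isolation and a standard mRNA library kit. Poly(A) selection, strand setting and multi-mapping setting are not given in the sources used here. Selection for poly(A) tails captures stem-loop mRNAs poorly, so such libraries can miss part of the histone RNA.

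Genes were filtered with filterByExpr (minimum count 10, minimum total 15), scaled by TMM and tested with edgeR 4.0.16 (R 4.3.3; glmQLFit with robust=TRUE and legacy=FALSE, then glmQLFTest). Genotype was the model's sole term, and Benjamini-Hochberg adjustment ran over all 13296 genes. The fit was checked on simulated counts. Members and lists were chosen with earlier results of these data known. Genes named were the 3 tested members per histone type with the highest mean CPM, the 5 members with the smallest unadjusted p, and in each other list the 4 genes with the smallest unadjusted p. Alternatives were median-ratio and total-count scaling, DESeq2 1.42.0, limma-voom (limma 3.58.1), no filter and a stricter one (1 CPM or more in 2 libraries, and 5 CPM on average). Fits that took replicate number as a blocking term, and fits that dropped each library in turn, were also run. The legacy quasi-likelihood method was added after seeing the data.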

Additional observations from a re-analysis of the deposited data

How the results depend on the processing

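No histone gene passed the threshold under any alternative run. Of 199 alternative values of the 17 named genes, 192 kept their direction and 7 reversed. Hist1h1c was at -0.00033 with DESeq2 and ran from -0.36 to 0.29 with a library left out, Hist1h3d was at -0.65 with limma-voom and ran from -2.33 to 1.32, Hist1h4i from -2.25 to 0.0174 and Hist2h2be from -0.0677 to 1.07. Hist1h4d ran from -0.999 to -0.74 and Hist1h2ak from -1.19 to -0.88. The ratio of summed histone CPM was 0.706 to 0.708 under other scalings, 0.698 without the most abundant member and 0.634 to 0.780 with a library left out. The number of members below 0 was 13 of 17 with the stricter filter and 29 to 38, of 41 to 47, with a library left out. The median was -0.75 without a filter and -0.95 to -0.49 with a library left out, the lowest without p53R248W/+ replicate 2. The number of genes called in the whole table was 6 with DESeq2 and 0 to 1 with a library left out, and 780 genes were at an unadjusted p under 0.05. With the replicate block, 0 genes were called and the median was -0.59, and the block changed no call. Deviations from the genotype means of same-numbered libraries correlated at -0.0074 over genes, so no shift common to them was seen across genes. With 2 libraries per genotype this is 1 value, and it cannot show whether same-numbered libraries shared a batch. Many members were counted at a few CPM, where these 2 libraries per genotype leave wide intervals.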
